A study of Mus musculus with 2 samples.

Results

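GC-rich promoter peaks are the open regions that lie at the CpG-dense promoters of protein-coding genes. A peak was counted as a member when its centre lay within 2 kb of a transcript start of a protein-coding gene, its central 200 bp held at least 60% G and C, and it lay on an autosome. The lists held 27110 such peaks in WT and 19461 in Uhrf1 KO, 46571 of 133554 deposited peaks in all. Members made up 39.0% of the 69440 autosomal WT peaks (95% exact binomial interval 38.7% to 39.4%) and 32.9% of the 59218 autosomal KO peaks (32.5% to 33.2%). Intervals of this kind are given throughout and cover counting error only. They take each peak as independent, although neighbouring members of one promoter can overlap, so they can be too narrow.

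The data were ATAC-seq peak lists of undifferentiated mouse embryonic stem cells (ESCs) of the E14 line. ATAC-seq uses the Tn5 transposase to tag DNA that is not wrapped in nucleosomes. The groups were E14 cells with intact Uhrf1 (WT) and Uhrf1 KO E14 cells, both cultured with serum and leukemia inhibitory factor on gelatin or on a layer of mouse embryonic fibroblasts (MEFs), and 50000 cells went into each library. Each genotype had 1 library, so no genotype difference has a replicate error, no test was made, and every value below compares those libraries. The labels give E14 for both samples, but the study's methods also describe Uhrf1 KO lines made with Cre from other ESCs, and neither says whether the KO cells sequenced were 1 clone, so the genotype and the history of the line cannot be told apart. The lists give positions without read counts, the depth behind a peak is unknown, and a missing peak can mean a weaker signal as well as none. All deposited peaks but 1 had a width of 101 bp, so a broad open promoter appears as several members. As a check of the cell type, GC-rich promoter peaks were listed at 8 of 10 ESC marker genes in WT and at 7 in Uhrf1 KO. Fibroblast markers, which a MEF layer could bring in, had them at 5 of 10 genes in both lists, with none at Col3a1, Dcn, Lum, Postn and Twist2, and primitive endoderm markers had them at 7 of 8 genes in both lists. Of all 21281 autosomal protein-coding genes, 12092 had a GC-rich promoter peak in WT and 10639 in Uhrf1 KO. Such peaks are thus common, and primitive endoderm markers had them as often as ESC markers, so these counts cannot tell the cell types apart. None of these marker genes with a WT member was without a KO peak. With so few genes, this allows a share of up to 36.9% for ESC, 52.2% for fibroblast and 41.0% for primitive endoderm markers.

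Most mammalian genes that are used in many tissues, and many developmental regulators, start within CpG islands, stretches of DNA that keep their CpG sites because they are normally free of DNA methylation. CpG islands tend to be low in nucleosomes at the start site and carry trimethylated H3K4 deposited by Setd1 and MLL complexes, and Polycomb complexes occupy those of silent developmental regulators in ESCs. Uhrf1 binds hemimethylated CpG sites behind the replication fork and recruits Dnmt1, which copies the methylation to the new strand.

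Examples of the members are shown first, so that the CpG density behind the numbers can be seen. All are deposited peaks on the plus strand of the mm9 genome (NCBIM37), none overlaps an exon of a protein-coding gene, and capitals mark CpG sites. The first is listed in both libraries and lies in an intron of Uhrf1, 60 bp before another start of the gene (chr17:56443626-56443726, WT position). The second is the peak of T, the mesoderm regulator Brachyury, which only WT had, 278 bp upstream of the start (chr17:8626960-8627060). The next pair were found only in Uhrf1 KO, 66 bp upstream of Spo11, the enzyme that makes meiotic double-strand breaks (chr2:172803085-172803185), and 226 bp upstream of Fam83e (chr7:52976306-52976406). The last 3 were chosen after their values were seen.
Uhrf1, both libraries: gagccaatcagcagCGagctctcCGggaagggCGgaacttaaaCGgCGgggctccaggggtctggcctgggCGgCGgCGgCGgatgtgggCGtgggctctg
T, WT only: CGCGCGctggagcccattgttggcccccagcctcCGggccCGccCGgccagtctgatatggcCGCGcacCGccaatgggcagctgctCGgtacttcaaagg
Spo11, KO only: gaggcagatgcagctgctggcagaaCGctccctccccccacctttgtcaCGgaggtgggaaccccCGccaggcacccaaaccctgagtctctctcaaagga
Fam83e, KO only: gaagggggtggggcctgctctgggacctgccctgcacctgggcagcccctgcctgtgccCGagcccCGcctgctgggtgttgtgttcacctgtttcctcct
The Uhrf1 and T peaks held 10 CpG sites each in these letters, whereas the peak of Spo11 held 3 and that of Fam83e held 2, although all 4 passed the same GC minimum.

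In the whole set, GC-rich promoter peaks were mostly CpG-rich as well, a property the rule did not use. The number of CpG sites divided by the number expected from the C and G content was at least 0.6 in 85.4% of WT members (84.9% to 85.8%) and 84.9% of KO members (84.4% to 85.4%). The same held for 38.3% of WT and 37.4% of KO promoter peaks below the GC minimum, and for 48.5% and 47.3% of GC-rich peaks more than 2 kb from the starts. Members had a median of 19.0 CpG sites per 200 bp in both lists, and the number ranged from 0 to 48 among WT members and from 0 to 47 among KO members. Of the promoter peaks of protein-coding genes, 76.8% in WT (76.4% to 77.3%) and 72.4% in Uhrf1 KO (71.9% to 72.9%) were GC-rich. The number in each peak name, which counts within a chromosome and whose meaning the sources do not state, went with membership. Of the tenth of peaks with the lowest numbers, 64.4% were members in WT and 47.7% in Uhrf1 KO, and of the tenth with the highest numbers 20.8% and 19%.

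Whether promoter peaks of one library were also listed in the other was asked next, with a peak of the other list at most 100 bp away counted as its partner. Of the 27110 WT members, 6674 had no KO partner (24.6%, 24.1% to 25.1%) and are called WT-only, against 32.2% of all autosomal WT peaks. Of the 19461 KO members, 867 had no WT partner (4.46%, 4.17% to 4.75%) and are called KO-only, against 24.4% of all autosomal KO peaks. GC-rich promoter peaks were thus less often without a partner than peaks at large in both lists, with the wider gap in Uhrf1 KO. Among GC-poor promoter peaks the shares were 29.1% in WT and 20.6% in Uhrf1 KO. Among GC-rich peaks away from the starts they were 39.3% and 10.6%. A KO share below that of all peaks was thus not particular to members. The number of WT-only members was 7.70 times the number of KO-only members (7.17 to 8.27). The same ratio was 1.55 for all autosomal peaks (1.52 to 1.58), 1.56 for GC-poor promoter peaks (1.46 to 1.67), 6.06 for GC-rich peaks away from the starts (5.50 to 6.68) and 0.897 for GC-poor peaks away from them (0.873 to 0.921). Both GC-rich classes therefore stood apart from both GC-poor classes, and the intervals of the GC-rich classes did not overlap each other. Members of the KO list numbered 0.718 times those of the WT list, against 0.853 for all autosomal peaks. The KO list is the shorter one, and with the WT list cut to the same length by its lowest name numbers, the ratio of WT-only to KO-only members was 4.48. The overlap rule moved it as well, to 4.01 with at least 1 shared bp and to 2.20 with at least 50% of both peaks shared, where 50% of WT and 31.7% of KO members had no partner. These settings were run for members only, so the ratio of 1.55 for all autosomal peaks is no comparison for them. The part of list length in the difference was not tested.

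From 40% to 80% GC, the share without a partner was lower at higher GC content in the KO list and varied less in the WT list. Of KO promoter peaks with 40% to 45% GC, 47.2% had no WT partner (40.7% to 53.8%), and of the 87 below 40% GC, which depart from this order, 23.0% (14.6% to 33.2%). The share was 13.1% at 55% to 60% GC, 6.79% at 60% to 65% and 2.88% at 75% to 80% (2.27% to 3.59%). Above 40% GC, the WT share stayed between 22.9% (65% to 70% GC) and 31.6% (80% GC and more, 29.4% to 33.9%). Around the GC minimum itself there was no step. Promoter peaks with 58% to under 60% GC lacked a partner in 27.1% of cases in WT and 10.4% in Uhrf1 KO, and members with 60% to under 62% in 26.0% and 8.01%. At the distance limit, GC-rich peaks 1500 to 2000 bp from a start lacked a partner in 38.4% (WT) and 9.79% (KO) of cases, and those at 2000 to 2500 bp in 40.4% and 14.7%, with overlapping intervals.

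**Figure D1:**
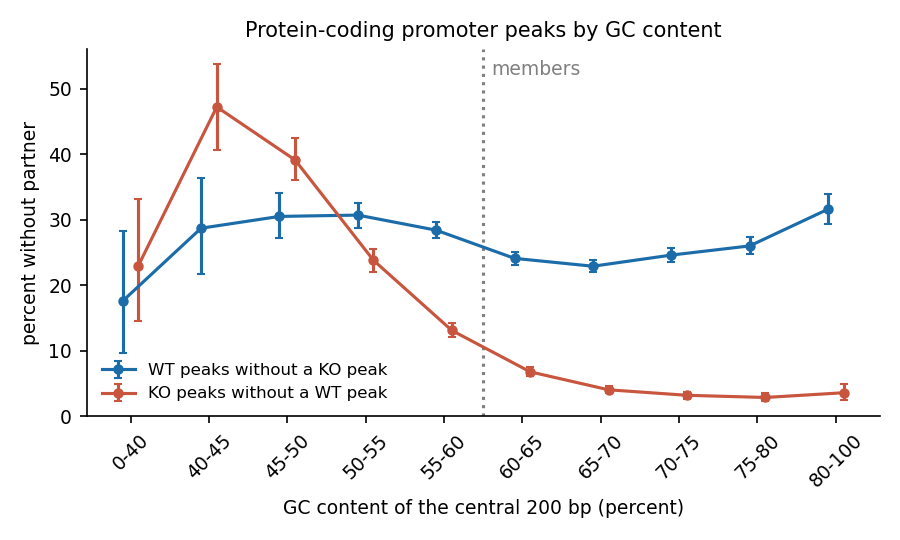
Percent of protein-coding promoter peaks without a partner in the other list (y axis) by GC content of the central 200 bp (x axis, percent), for WT and KO peaks, with 95% exact binomial intervals as bars. Members lie right of the dotted line, where the KO share is between 2.88% and 6.79% and the WT share between 22.9% and 31.6%.

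CpG density went the same way within the members. KO members with an observed to expected CpG ratio below 0.4 had no WT partner in 15.6% of cases (13.0% to 18.5%), and those with a ratio of 1 or more in 2.70% (2.20% to 3.28%). For WT members the values were 35.8% (32.7% to 38.9%) and 22.5% (21.4% to 23.6%). KO-only members had a median of 15.0 CpG sites per 200 bp and a median GC content of 66.0%, whereas shared KO members had 19.0 sites and 68.5%. WT-only and shared WT members both had a median of 19.0 CpG sites, with 69.5% and 69.0% GC. The KO-only peaks of Spo11, with 5 CpG sites in its 200 bp, and Fam83e, with 2, are at the sparse end of this range.

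Shared and unshared members lay at different places of the promoter. Shared members gathered just upstream of the start, with a median position of -16.0 bp in WT and -21.0 bp in Uhrf1 KO and 57.2% and 59.1% of them upstream. WT-only members had their median at 122 bp downstream, with 34.6% upstream (33.5% to 35.8%), and KO-only members at 163 bp downstream, with 35.2% upstream (32.0% to 38.5%). The share of WT members without a partner was lowest, 12.0%, from 200 to 100 bp upstream of the start, and was 44.4% from 500 to 1000 bp downstream. KO members had 1.84% and 10.9% in the same intervals. The shift into the gene body was thus seen in the unshared peaks of both libraries.

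**Figure D2:**
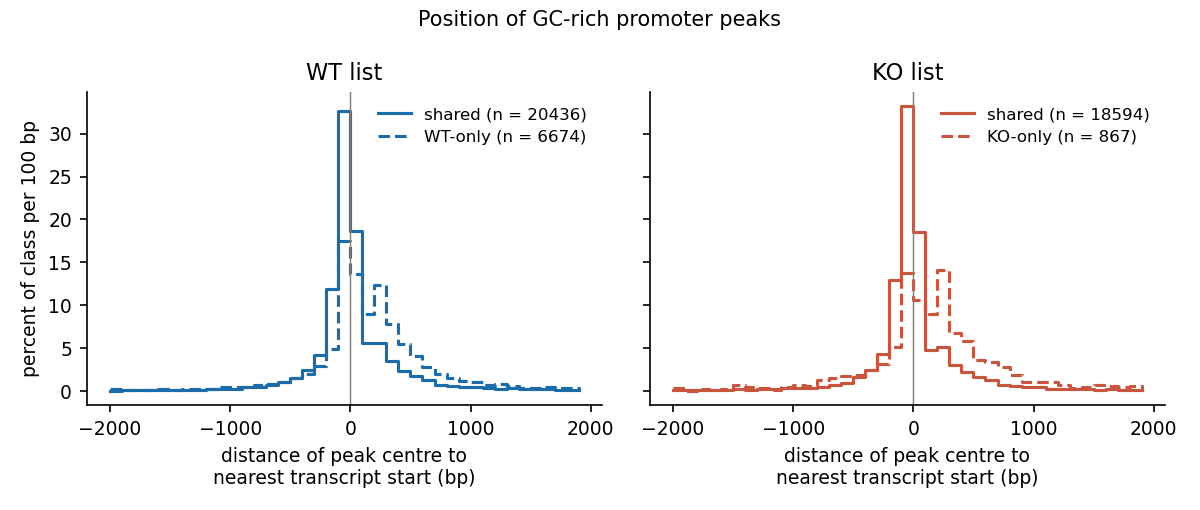
Distribution of members by the distance of their centre to the nearest transcript start (x axis, bp, negative values upstream), as percent of each class per 100 bp (y axis), with the WT list on the left and the KO list on the right. Solid lines show shared members and dashed lines those without a partner, which are spread further downstream, with median positions of 122 bp (WT-only) and 163 bp (KO-only).

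The annotation gave the same order. WT members whose centre lay outside transcripts had no KO partner in 13.0% of cases (12.3% to 13.7%), those in untranslated exons in 22.6%, those in introns in 34.9% and those in coding exons in 44.4% (42.4% to 46.4%). For KO members the values were 2.21%, 3.34%, 8.25% and 9.60%. Coding exons held 9.10% of all WT members and 16.4% of the WT-only members. Myod1 and Hand2, described below, had WT-only members of this kind.

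Unshared members were seldom alone at their promoter, which here takes in 2 kb around every start of a gene. Of the WT-only members, 73.2% (72.1% to 74.2%) had another WT peak with a KO partner at the same promoter, and of the KO-only members 79.2% (76.4% to 81.9%) had a shared KO peak there. The like share was not taken for shared members, so this is not shown to be particular to unshared ones. At promoters with several WT members, the member with the lowest name number lacked a partner in 10.3% of cases and the others in 30.8%, and in Uhrf1 KO in 1.10% and 6.29%. A single WT member lacked one in 22.5% of cases and a single KO member in 4.69%. Where WT members had a KO partner, their centres were 30.0 bp apart in the median (quartiles 9 and 64 bp), 318 pairs had the same centre, and 94.7% of the partners were themselves GC-rich promoter peaks. The name number moved with the share without a partner. In the tenth of WT peaks with the lowest numbers, 0.134% of members had no partner, and in the tenth with the highest 68.3%, and the KO values were 0.106% and 18.5%. The WT-only peak of T printed above was in the tenth with the highest numbers, with a rank of 0.916. The part of the name number in these differences was not tested.

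Chromosome 8 had the highest WT and the lowest KO share of members without a partner. On it, 30.7% of WT members (28.5% to 33.0%) and 2.09% of KO members (1.31% to 3.15%) had no partner. These intervals overlapped those of some other autosomes. Among them were chromosomes 15 (25.1% to 30.4%) and 19 (24.7% to 30.9%) in WT and chromosome 3 (2.73% to 5.15%) in Uhrf1 KO. The other 18 autosomes lay between 19.0% and 27.7% in WT and between 3.81% and 5.51% in Uhrf1 KO, so that on each of them a WT member lacked a partner more often than a KO member did. KO members numbered 0.639 times the WT members on chromosome 8 and 0.674 to 0.781 times elsewhere. Without chromosome 8, the shares were 24.2% and 4.59% and the ratio of WT-only to KO-only members 7.30 (6.79 to 7.85), close to the values with it. The other classes shifted in the same direction. Leaving it out took the WT share from 29.1% to 28.3% for GC-poor promoter peaks. For GC-rich and GC-poor peaks away from the starts it went from 39.3% to 38.2% and from 38.8% to 37.7%. The KO shares of these classes rose slightly. The departure of chromosome 8 was thus not particular to members.

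**Figure D3:**
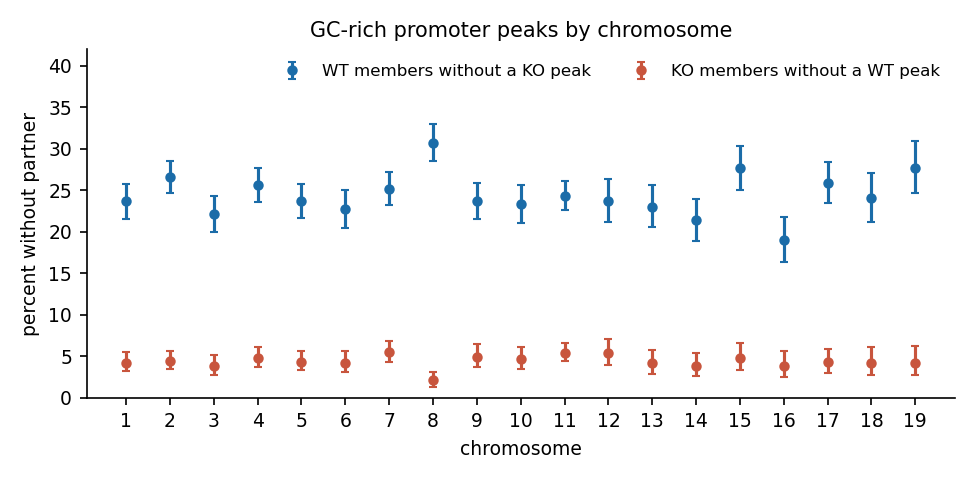
Percent of members without a partner in the other list (y axis) for each autosome (x axis), for WT and KO members, with 95% exact binomial intervals as bars. The WT share lies between 19.0% and 30.7% and the KO share between 2.09% and 5.51%, and chromosome 8 has the highest WT and the lowest KO value.

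Which short sequences the members hold was read from the genome in the central 200 bp on both strands. The letters searched were GGGCGG for Sp/KLF, CCAAT for NFY, CCGGAAG for ETS factors, GCGCATGC for NRF1, TGACGTCA for CREB, TCTCGCGA for BANP, CACGTG for the E-box, TTTCGCGC or TTTGGCGC for E2F, AAGATGGC for YY1, ACTACAA for ZNF143, TATAAA for TATA, ATGCAAAT for the Oct4 octamer and AGGGGGC for part of the CTCF motif. NRF1, BANP and CREB sites contain CpG, and methylation of that CpG is known to hinder their binding. A match is a string of letters and does not show binding. Examples of matches are shown here, in members of the lowest name number that hold one, with the matched letters of the named motif in capitals, again on the plus strand, where a site can appear as its reverse complement. The peaks are those of Cyb5r4, 74 bp upstream of its start (chr9:86916725-86916825), of Pou4f1, 74 bp upstream (chr14:104867240-104867340), and of Cggbp1, 163 bp upstream (chr16:64851609-64851709) and 106 bp upstream (chr16:64851666-64851766). The last pair overlap, as neighbouring members of one promoter often do. A WT-only member of Vgll3, 616 bp upstream (chr16:65815212-65815312), and a KO-only member of Gm3739, 495 bp upstream (chr14:8148008-8148108), follow.
NRF1, Cyb5r4, shared: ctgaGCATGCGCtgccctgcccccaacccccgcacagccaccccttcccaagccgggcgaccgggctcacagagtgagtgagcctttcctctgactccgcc
BANP, Pou4f1, shared: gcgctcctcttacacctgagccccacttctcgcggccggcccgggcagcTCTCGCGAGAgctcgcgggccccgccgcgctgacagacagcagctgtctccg
ETS, Cggbp1, shared: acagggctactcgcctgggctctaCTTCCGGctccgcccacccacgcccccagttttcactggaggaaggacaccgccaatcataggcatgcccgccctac
NFY, Cggbp1, shared: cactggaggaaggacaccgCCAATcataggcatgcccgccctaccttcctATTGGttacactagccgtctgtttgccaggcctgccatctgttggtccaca
Sp/KLF, Vgll3, WT only: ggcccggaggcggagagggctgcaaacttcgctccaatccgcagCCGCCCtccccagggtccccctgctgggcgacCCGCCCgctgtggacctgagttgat
NFY, Gm3739, KO only: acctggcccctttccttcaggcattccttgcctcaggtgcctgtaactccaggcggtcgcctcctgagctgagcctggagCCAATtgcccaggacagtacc

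Every motif searched was less frequent in WT-only than in shared WT members, and the intervals did not overlap for any of the 13. Neighbouring members can share matched letters, which these intervals do not allow for. The Sp/KLF letters, bound by Sp1 and the Klf family, were found in 70.6% of shared (69.9% to 71.2%) and 56.7% of WT-only members (55.5% to 57.9%). The NFY letters, the CCAAT box of many housekeeping promoters, were found in 22.7% and 9.96% (9.26% to 10.7%). NRF1, a regulator of respiratory and housekeeping genes, had 3.72% and 1.93%, and BANP, which binds the CGCG element of essential genes, had 1.44% and 0.330%. ETS letters were found in 11.3% and 5.72%. In the KO list, shared and KO-only members held the Sp/KLF letters in 71.3% and 51.7%, NFY in 23.8% and 11.5%, ETS in 11.6% and 6.11% and NRF1 in 3.55% and 0.807% of cases. For E-box, E2F, YY1, ZNF143, TATA and the Oct4 octamer the KO intervals overlapped, with 52, 7, 15, 11, 7 and 1 matching KO-only members. Windows of 200 bp around all 30093 transcript starts with at least 60% GC held Sp/KLF in 64.9%, NFY in 20%, ETS in 13.6%, NRF1 in 3.73% and BANP in 1.62% of cases.

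**Figure D4:**
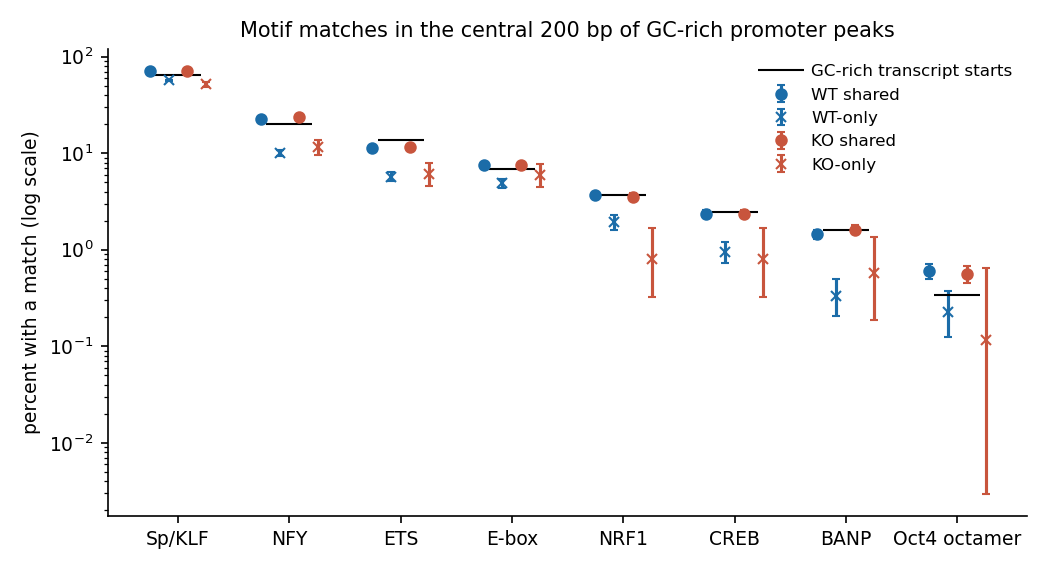
Percent of members with at least 1 match in the central 200 bp (y axis, log scale) for 8 of the 13 motifs (x axis), for shared and unshared members of both lists with 95% exact binomial intervals as bars. The black dashes give the share in GC-rich windows at all transcript starts, for example 64.9% for Sp/KLF, and the unshared WT members (crosses) lie below the shared ones (dots) for each motif.

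The motifs were also compared at a like distance from the start. They were not compared at a like rank among the name numbers, whose median was 0.246 for shared WT and 0.675 for WT-only members. Among WT members within 100 bp of a start, NFY letters were found in 25.5% of shared and 11.2% of WT-only members (9.89% to 12.7%), and Sp/KLF in 75% and 65.4%. Among those 200 bp to 2 kb downstream, NFY was found in 12.8% and 8.42% and Sp/KLF in 58.7% and 49.8%. The WT-only interval lay below the shared one for 7 of the 13 motifs within 100 bp of a start and for 5 of the 13 in the downstream class, Sp/KLF, NFY, ETS and E-box in both. The intervals overlapped for the others, and for TATA within 100 bp of a start (1.79% and 1.77%) and YY1 downstream (1.05% and 1.02%) the shares were nearly the same. Within the window of WT members, matches per 20 bp were most frequent on both sides of the peak centre for ETS (416 and 432, against 173 to 330 elsewhere) and CREB (96 and 81, against 27 to 67). NRF1 matches were most frequent 60 to 80 bp from the centre (237, against 150 and 168 beside the centre), and YY1, TATA and E2F matches did not gather at the centre either. The highest count also lay off the centre for E-box (284, against 226 and 246 beside the centre) and BANP (66, against 49 and 59). The outermost 20 bp can miss matches that the edge of the window cuts. Tn5 has its own preference for certain sequences, and its part in these positions was not tested.

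At the level of genes, 12301 of 21281 autosomal protein-coding genes had a start window with at least 60% GC. Of these, 87.6% (87.0% to 88.2%) had a GC-rich promoter peak in WT and 78.3% (77.5% to 79.0%) in Uhrf1 KO, and 7.03% had no peak of any kind in either list. In all, 12393 genes had a member in either list and 10338 of them (83.4%) had members in both. WT had more members than Uhrf1 KO at 6444 genes (52%), as many at 3922 (31.6%) and fewer at 2027 (16.4%). The mean per gene was 2.44 members in WT and 1.76 in Uhrf1 KO. A member within 2 kb of the starts of several genes was counted for each of them, which concerned 11.6% of WT and 12.0% of KO members.

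The genes with the most members had them in both libraries. The members of a gene were summed over all its starts, which lie far apart in Auts2, Bnc2 and Elf2, so a high number need not be 1 broad promoter. Auts2, a neurodevelopmental gene, had 17 members in WT and 10 in Uhrf1 KO. Bcl11a, a repressor of fetal globin genes, had 12 in both, and Bnc2, a zinc finger gene, had 12 and 9. Cpeb2, an mRNA-binding regulator of translation, had 12 and 10, and Ism1, which codes for a secreted protein, had 11 and 10. Elf2, an ETS factor, and Mnt, a partner of Max, had 10 in WT and 11 in Uhrf1 KO. Phf17, a scaffold of histone acetyltransferase complexes, differed more, with 15 and 6 members. Of its 15 WT members, 3 had no KO partner, and the other 12 lay within 100 bp of KO peaks, of which 7 lay within 2 kb of its starts.

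A promoter could also have WT members and no KO peak of any GC content. This was so for 1085 of the 12092 genes with a WT member (8.97%, 8.47% to 9.50%), against 10.4% of all protein-coding genes with a WT peak of any GC content. The reverse held for 100 of the 10639 genes with a KO member (0.940%, 0.765% to 1.14%), against 2.87% for KO peaks of any GC content. Most of these genes had a single GC-rich member, some of them with GC-poor peaks beside it. Of the 1085 genes, 658 had 1 WT member, and the share without a KO peak was 16.2% among genes with 1 WT member and 0.706% among those with 6 or more. Of the 100 genes, 88 had 1 KO member. The WT members at the 1085 genes were of late rank by name number, at 0.659 of the way through their chromosome in the median against 0.321 at the other genes, and the part of this in the count was not tested. On chromosome 8 the share of genes was 8.76%, and on the other 18 autosomes it lay between 5.22% and 13.0%.

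The promoters with most WT members and no KO peak belonged to genes of varied function. Gpr153, an orphan receptor gene on chromosome 4, had 6 WT members, 4 of them between 291 and 63 bp upstream of a start. B3galt6, a galactosyltransferase of proteoglycan synthesis, and Sdf4, a calcium-binding protein of the Golgi, had 6 members each, and since they share a divergent promoter these are the same peaks. Hand2, a regulator of heart and limb development, had 6 members from 11 to 1287 bp downstream of its start (chr8:59799741-59801117 in all). Rbfox3, the neuronal splicing factor known as NeuN, had 6, spread over several of its starts and all of late rank, at 0.912 or more of the way through the name numbers of its chromosome. Cbfa2t3, a corepressor, Slc25a21, a mitochondrial carrier, and Rgnef, a guanine nucleotide exchange factor, had 5 each.

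Promoters with KO members and no WT peak held few members each. Fam83e had 3 KO members, at 277, 226 and 48 bp upstream of its start, with 2, 2 and 5 CpG sites per 200 bp. Pnpla1, a lipid enzyme of the epidermis, Arl5c, a small GTPase, Reep2, an endoplasmic reticulum protein, Cmpk2, a mitochondrial nucleotide kinase, Unc13d, which acts in granule release, Kcnj5, a potassium channel gene, and Dnajc22 had 2 each. The KO members at all 100 genes had a median of 13.0 CpG sites per 200 bp and 63.0% GC, against 19.0 sites and 69.0% for the WT members at the 1085 genes.

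The genes the study itself turns on were open in both libraries. Uhrf1 had 2 members in WT and 3 in Uhrf1 KO, all shared, and the member at its first start had the same position in both, so that these peaks do not check the genotype. Setd1a, the H3K4 methyltransferase the study ties to Uhrf1, had 5 WT members and 1 KO member. Its only KO member (chr7:134920430-134920530) was the partner of the WT member at chr7:134920461-134920561, and the other 4 WT members, between 134920780 and 134921301, had none. Their rank among the name numbers was 0.559 to 0.709. Dnmt1, the maintenance methyltransferase, had 2 members in each list, at most 3 bp apart. Sox2 had 2 WT and 3 KO members, all shared. Pou5f1, which codes for Oct4, had 1 member in each list, 72 bp upstream of a start and WT-only in WT and 1047 bp upstream and shared in Uhrf1 KO, and most of its promoter peaks were GC-poor. Nanog had no GC-rich promoter peak, and of its 2 GC-poor WT peaks and 1 GC-poor KO peak 1 pair was shared.

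Gene lists were read by the number of genes that had a WT member and no KO peak, against 8.97% over all genes with a WT member. That share was 16.2% at genes with 1 WT member and 0.706% at those with 6 or more. The lists were not matched for this number: germ line genes had 34 WT members at 20 genes and Polycomb genes 109 at 27. The lists were chosen with earlier results of these data known, so their counts describe these libraries only. Among regulators of mesoderm, muscle and heart, 7 of 22 genes with a WT member had no KO peak (31.8%, 13.9% to 54.9%). They were Hand2, Foxf1a, a regulator of lateral mesoderm, with 3 WT members, Myod1, the regulator of skeletal muscle, with 3, and Hand1, Mesp1, Tbx1 and T with 1 each. The single peaks of Hand1 and T had late ranks among the name numbers, 0.947 and 0.916, and those of Tbx1 and Mesp1 0.701 and 0.547. In the tenth with the highest numbers, 68.3% of all WT members had no partner. Mesp1, which marks the earliest heart mesoderm, had its peak 973 bp downstream of the start, and the Myod1 members lay in its coding exon, 713 to 1842 bp downstream. Hand2 and Foxf1a are on chromosome 8, and without that chromosome the count was 5 of 20. WT had more members at 17 of the 22 genes, against 52% of all genes with a member. Other regulators of the list had members in both libraries, among them Eomes (5 WT and 4 KO members) and Twist1 (8 and 6), and Mixl1 and Bmp4 had GC-rich members in WT only, 2 and 3, and GC-poor peaks in Uhrf1 KO.

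**Figure D5:**
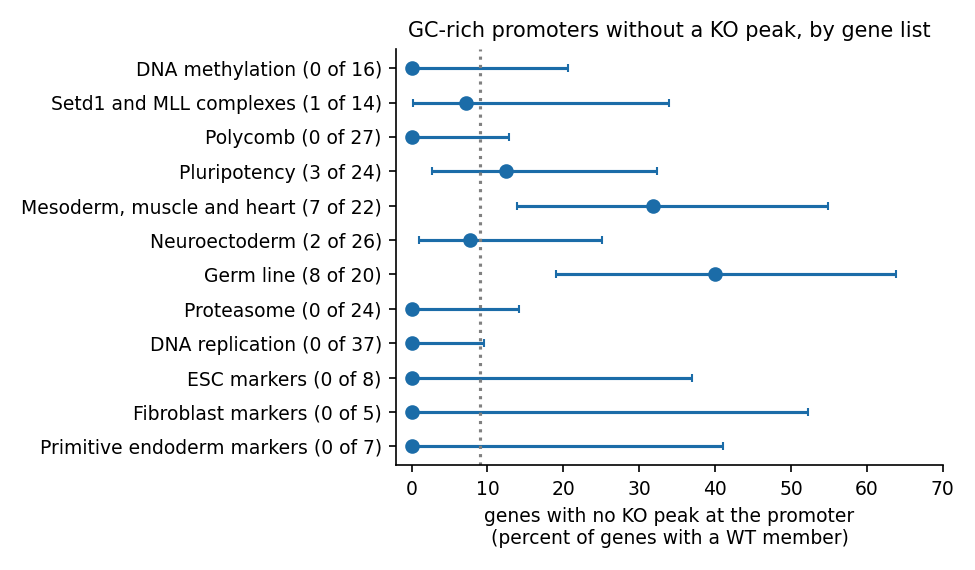
Percent of the genes with a GC-rich WT promoter peak that had no KO peak at the promoter (x axis) for 12 gene lists (y axis, with the number of such genes of how many), with 95% exact binomial intervals as bars. The dotted line marks 8.97%, the value over all genes with a WT member, and the intervals of the germ line list (19% to 63.9%) and the mesoderm list (13.9% to 54.9%) lie above it.

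Germ line genes had the highest share of all the lists. Of the 20 with a WT member, 8 had no KO peak (40%, 19% to 63.9%), none of them on chromosome 8. Promoters of many germ line genes are known to carry DNA methylation in somatic cells. The 8 genes were Sycp1 and Syce1, parts of the synaptonemal complex, Mael and Tdrd6, of the piRNA and chromatoid body machinery, Dmrt1 and Sohlh2, transcription factors of germ cells, Stk31, and Slc25a31, a testis form of the ADP/ATP carrier. Sycp1, Syce1, Mael, Dmrt1 and Slc25a31 had 2 WT members each and Sohlh2, Stk31 and Tdrd6 had 1. Mael had its peaks 12 and 142 bp upstream of the start (chr1:168168837-168169067), with 20 and 13 CpG sites per 200 bp. In the other direction, 2 of the 14 germ line genes with a KO member had no WT peak, Spo11 and Tuba3a, a testis tubulin. Over all genes with a KO member the share was 0.940%. WT had more members at 13 genes of the list, Uhrf1 KO at 6, and 4 had as many in both. Over all genes with a member, WT had more at 52% and Uhrf1 KO at 16.4%. Dazl, an RNA-binding protein of germ cells, had 2 WT and 4 KO members, all shared. So the list held promoters with a peak in either library only, as well as promoters with shared peaks. The counts depended on the name numbers. With members restricted to the 50% of low name numbers, 2 germ line and 2 mesoderm genes had a WT member and no KO peak, and with lists of equal length the counts were 4 and 5.

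Among genes of chromatin regulators with a WT member, 1 had no KO peak. Of the 27 Polycomb genes, all had members in both lists, 109 in WT and 84 in Uhrf1 KO, with more in WT at 16 genes and more in Uhrf1 KO at 6, not far from the 52% and 16.4% over all genes with a member. Jarid2 had 11 WT and 8 KO members, Bmi1 9 and 5, and Suz12, a core subunit of Polycomb repressive complex 2, 3 and 6. None of the 27 lacked a KO peak, a count that allows a share of up to 12.8%. None of the 16 genes of DNA methylation with a WT member lacked one either. WT had more members at 8 of them, Uhrf1 KO at 1, and 7 had as many in both. Trim28, a corepressor needed for imprint maintenance, had 7 WT and 3 KO members, and Uhrf2 4 and 1, whereas Tet2 had 4 in both. Of the 14 Setd1 and MLL complex genes with a WT member, 1 had no KO peak. It was Mll2 as named by the annotation, on chromosome 15, whose only peak lay 1113 bp upstream of a start. That entry need not be the gene the study calls Mll2. This list had 45 WT and 25 KO members, with more in WT at 12 of the 14 genes and more in Uhrf1 KO at 1. Ash2l, a core subunit on chromosome 8, had 3 GC-rich WT members and only GC-poor peaks in Uhrf1 KO.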

How the data were processed

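Per the labels and the study's methods, the authors mapped ATAC-seq reads to mm9 with Bowtie2 2.1.0 and used fragments below 150 bp. HOMER 4.9.1 is named in the submitters' processing notes without a role, and the peak caller and its threshold are not given in the sources used here. The deposited files hold peak positions and a score, and the deposited score was 1 for every peak, so it was not used. Peaks were classed by position against the transcript starts of GENCODE vM1 and by sequence of NCBIM37, the same build as mm9. Chromosome lengths were checked. RefSeq tables of another build were not used. The 289 peaks of both lists in unsequenced stretches have no GC content and are no members.

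Peaks at most 100 bp apart counted as partners, the distance the study used for binding sites of transcription factors, and a partner was looked for in the whole other list. Shares have 95% Clopper-Pearson intervals. A promoter of a gene is the 2 kb around any of its starts. The search for partners was tested on simulated peaks. Alternatives concerned the overlap, the GC and distance limits, chromosome 8, name numbers, merging of peaks and the choice of starts. Python 3.11.15, numpy 2.4.6, pandas 2.3.3, scipy 1.17.1 and matplotlib 3.10.9 were used.

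Members, gene lists and motifs were chosen with earlier results of these data known. Named are 6 study genes, up to 6 genes of each of 14 lists (first those with a peak in 1 library only, then those with most members), the 8 genes with most members, and the 8 genes with most members in 1 library and no peak in the other. Further genes named for contrast, Bmp4, Dazl, Mixl1, Uhrf2 and others of the lists, were chosen after their values were seen. Printed sequences are those of Uhrf1 and of the lowest name number per class and motif without an exon, and those of T, Spo11 and Fam83e. Of 311 names in the lists, 14 had no entry on the autosomes of the annotation and were not analysed here.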

Additional observations from a re-analysis of the deposited data

How the results depend on the processing

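The libraries have no replicates, so no replicate could be left out, and no group had the 4 samples needed to look for an outlying one. No paired analysis was possible because there was 1 library a genotype. WT-only members outnumbered KO-only members under each of the 11 alternatives. Values are given as percent of WT members without a KO peak, percent of KO members without a WT peak, and the ratio of WT-only to KO-only members, against 24.6%, 4.46% and 7.70. With at least 1 shared bp they were 33.8%, 11.7% and 4.01, and with at least 50% of both peaks shared 50%, 31.7% and 2.20, the lowest ratio. With a GC minimum of 55% they were 25.2%, 5.94% and 5.79. With the GC content of the deposited peak they were 25.4%, 5.24% and 6.80, and with neighbouring peaks merged 26.6%, 5.37% and 6.53. With as many WT as KO peaks by name number they were 20.8%, 5.91% and 4.48, and with members of the lower 50% of name numbers 9.23%, 0.780% and 17.1. At a GC minimum of 65% the KO share was 3.53% and the ratio 10.1. The WT share was 23.9% both within 1 kb of a start and with the outermost start of each gene. Genes with a WT member and no KO peak numbered 393 (1085 in the report) with the lower 50% of name numbers. Genes with a KO member and no WT peak numbered 182 at 55% GC, 41 at 65% GC, 164 with as many WT as KO peaks, and 8 among the lower 50% of name numbers, against 100 in the report. The cause of these shifts was not tested. The other 21 of 51 values stayed inside the interval of the reported value or, for gene counts, within 1.5 times, those without chromosome 8 included. Of 18 values for the mesoderm and germ line lists, an alternative added after seeing the data, 3 moved further: 2 genes for each list with the lower 50% of name numbers and 4 germ line genes with equal list lengths. Of 78 motif shares, 42 moved outside the interval of their reported value. The depth behind each peak is unknown and limits what an absent peak means.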

Other observations

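Genes of DNA replication and of the proteasome mostly had GC-rich promoter peaks in both libraries. Of 37 DNA replication genes with a WT member, none lacked a KO peak, a count that allows a share of up to 9.49%, and the list had 95 WT and 83 KO members. Cdc7, a kinase that starts replication, had 1 KO member 97 bp upstream of its start and no WT peak. Of 24 proteasome genes with a WT member, none lacked a KO peak (up to 14.2%), with 35 WT and 28 KO members. Psmb5, a catalytic subunit, had a GC-rich and a GC-poor KO peak and no WT peak. Cdc7 and Psmb5, the genes of these lists with a member in 1 library and no peak in the other, thus had it in the KO list. The member of Cdc7 had a rank of 0.834 of the way through the name numbers and that of Psmb5 0.833.

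Among pluripotency genes, 3 of 24 with a WT member had no KO peak (12.5%, 95% exact binomial interval 2.66% to 32.4%), near the 8.97% over all genes with a WT member. Lefty1 and Lefty2, secreted inhibitors of Nodal, had 1 WT member each, in exons of non-coding transcripts, and Prdm14, a regulator of naive pluripotency, had 3, of which 1 lay 31 bp upstream of the start. Among regulators of neuroectoderm, Hes5, a Notch target, and Neurog3 were the 2 of 26 genes without a KO peak (7.69%, 0.946% to 25.1%), also near that value. Genes of the 2C state, which resemble those of the embryo after its first division, mostly lie outside this class. Of the 15 found in the annotation, 13 had no peak in either list at the promoter. The other 2, Dux and Eif1a, had 1 member in each list. Those of Eif1a were shared. The KO member of Dux had no WT partner, and Dux had 2 WT and 5 KO promoter peaks of any GC content.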
